A study of Homo sapiens with 60 samples.

Results

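The subunits of the respiratory chain, the enzyme complexes of the inner mitochondrial membrane that carry out oxidative phosphorylation, were followed at the mRNA level in A549 cells, a widely used human line derived from a lung carcinoma. The members were the protein-coding genes whose symbols name a subunit of NADH dehydrogenase (complex I), succinate dehydrogenase (complex II), the cytochrome bc1 complex (complex III), cytochrome c oxidase (complex IV) or ATP synthase (complex V), together with the 13 mRNAs that the mitochondrial DNA encodes. The symbol rule found 100 of the 60675 genes in the table. Of these, 77 encode the nuclear subunits used in most tissues, called core subunits here: 36 of complex I, 4 of complex II, 9 of complex III, 11 of complex IV with NDUFA4 counted there, and 17 of complex V. Another 10 nuclear members are tissue-specific isoforms or close paralogues. After a filter on low counts, 95 members were tested: all 77 core subunits, all 13 mitochondrial mRNAs and 5 isoforms. The isoforms that did not pass were COX4I2, COX6A2, COX7B2, COX8C and ATP5MGL, with at most 3 counts in any library.

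Complexes I, III and IV pass electrons from NADH to oxygen and pump protons across the membrane, complex II feeds in electrons from succinate, and complex V uses the proton gradient to make ATP. Each of these complexes except complex II is assembled from the products of 2 genomes, so nuclear mRNAs translated in the cytosol and mitochondrial mRNAs translated inside the organelle have to meet in the same particle. The mitochondrial mRNAs are cut from long transcripts of the circular mitochondrial genome, whereas each nuclear subunit has a promoter of its own.

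RNA was sequenced in 60 libraries taken 24 h after the start of treatment with vehicle (DMSO, n = 3) or with ethanol extracts of herbs and herbal formulas at 3 doses each, called high, medium and low. For Polygalae Radix these were 380, 76 and 15.2 µg/mL, and for Aucklandiae Radix 370, 74 and 14.8 µg/mL, with 2 libraries a dose. The 6 other extracts were used at 500, 100 and 20 µg/mL: Menthae Herba, Saposhnikoviae Radix, Guibi-tang and Saengmaek-san in 3 libraries a dose, Soyo-san in 2 and Okbyeongpung-san in 1. According to the series description, extracts whose IC20 lay under 500 µg/mL were given at that concentration and at dilutions of it, and libraries that failed for low RNA were left out. The sample labels and the series description give different DMSO percentages (0.1 and 2). Whether replicates were separate cultures is not stated in the labels, and p-values then reflect only the variation among these libraries, which may be technical.

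Totals ran from 17113963 to 33363661 counts a library. The libraries formed 2 classes that the labels do not name, read from the unnamed gene ENSG00000282955: 38 libraries (class 1) held it at 3.50 CPM (counts relative to the library's total, on the usual scale) or less and 22 (class 2) at 17.6 CPM or more. The mitochondrial mRNAs took 4.66% to 7.27% of the counts in class 1 and 7.17% to 14.4% in class 2. Vehicle, Soyo-san and Okbyeongpung-san were wholly class 2, Menthae Herba and Aucklandiae Radix wholly class 1, and 9 groups were mixed. Doses were therefore compared within an extract, and fits with the class as a covariate or inside a class were added.

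In vehicle, the members covered a wide range of levels. Per kilobase of the median annotated transcript, the mitochondrial mRNAs lay from 1263 CPM/kb (MT-ND6, a complex I subunit and the 1 mRNA of the set from the other strand) to 15899 CPM/kb (MT-CO3, a cytochrome c oxidase subunit), with a median of 5509. The most abundant nuclear mRNA was ATP5F1B, the catalytic beta subunit of ATP synthase, at 530 CPM/kb, followed by COX6B1 of complex IV at 523 CPM/kb. Complex I ran from 6.15 CPM/kb for the accessory subunit NDUFV3 to 137 CPM/kb for NDUFS5, and complex II from 7.98 to 55.0 CPM/kb. Every mitochondrial mRNA was thus above every nuclear subunit per length. Among isoforms and paralogues COX7A2L, a factor of supercomplex assembly, was highest at 36.1 CPM/kb, followed by UQCRHL at 3.39 and NDUFA4L2 at 1.27.

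**Figure D1:**
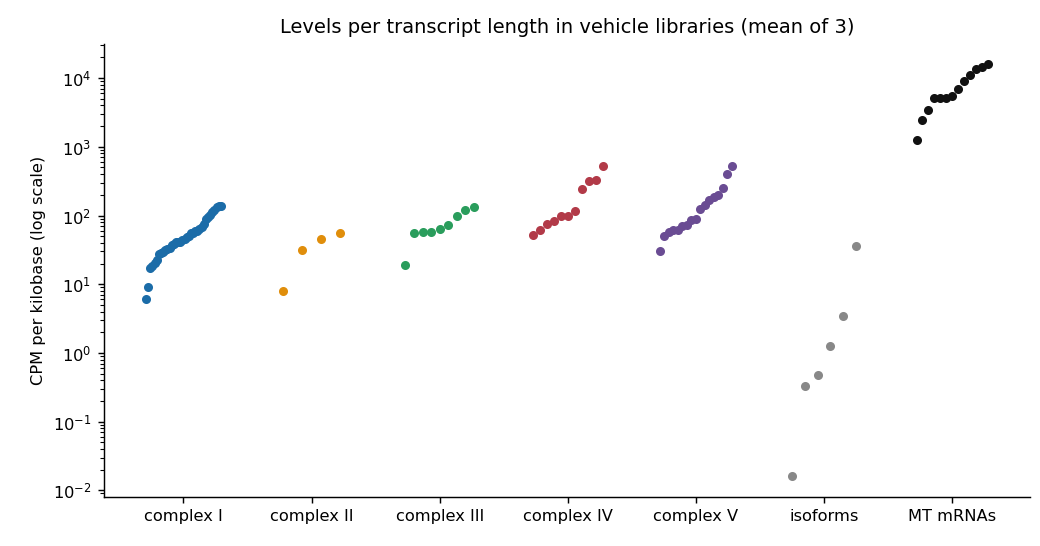
Level per transcript length in vehicle (CPM per kilobase, log axis) for each member, by complex, as the mean of 3 libraries. The 4 isoforms at 0 are not drawn. The 13 mitochondrial mRNAs lie above all nuclear subunits, with medians of 5509 CPM/kb for them and 45.1 CPM/kb for complex I.

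Because the nuclear subunits have separate promoters, the sequences around their starts were read. RefSeq (GRCh38.p14) gave windows of 250 bases before to 50 bases after the start for 65 of the 77 core subunits. Letters of sites for 3 factors known from respiratory genes were searched on both strands: GCGCATGCG for NRF1, CCGGAAG for the ETS factor GABPA, and AAGATGGC for YY1. These motifs share no full letter run, although matches on the 2 strands of the palindromic NRF1 letters can overlap. Some genes have several windows, and a gene was counted when any of them matched. The NRF1 letters stood in 11 core subunits (16.9%), against 3.11% of 15843 genes. The GABPA letters stood in 21 (32.3%, against 16.5%) and the YY1 letters in 12 (18.5%, against 4.66%), while 28 core subunits held none of the 3. Among genes with 1 window, 56 of them core subunits, the shares were 14.3% against 2.88% for NRF1. They were 32.1% against 15.1% for GABPA and 17.9% against 4.22% for YY1. Shown here, 5′ to 3′ on the gene's strand, are the 4 core subunits with the NRF1 letters whose mRNA changed most with Polygalae Radix. Capitals mark all letters of the 3 motifs.
NDUFS6, complex I, chr5:1801157-1801456, + strand: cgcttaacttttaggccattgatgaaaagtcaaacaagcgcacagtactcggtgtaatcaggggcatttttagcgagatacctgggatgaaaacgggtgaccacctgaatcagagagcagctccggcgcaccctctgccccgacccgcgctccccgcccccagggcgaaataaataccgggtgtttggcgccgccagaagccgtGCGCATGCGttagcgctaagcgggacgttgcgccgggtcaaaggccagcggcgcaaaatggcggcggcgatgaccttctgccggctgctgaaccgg
ATP5F1C, complex V, chr10:7787927-7788226, + strand: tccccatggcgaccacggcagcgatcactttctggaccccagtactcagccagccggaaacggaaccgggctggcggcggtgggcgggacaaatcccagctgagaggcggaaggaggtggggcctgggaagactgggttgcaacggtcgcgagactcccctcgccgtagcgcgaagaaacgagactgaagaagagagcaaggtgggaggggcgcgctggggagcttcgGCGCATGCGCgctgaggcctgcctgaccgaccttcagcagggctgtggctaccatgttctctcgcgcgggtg
NDUFS7, complex I, chr19:1383657-1383956, + strand: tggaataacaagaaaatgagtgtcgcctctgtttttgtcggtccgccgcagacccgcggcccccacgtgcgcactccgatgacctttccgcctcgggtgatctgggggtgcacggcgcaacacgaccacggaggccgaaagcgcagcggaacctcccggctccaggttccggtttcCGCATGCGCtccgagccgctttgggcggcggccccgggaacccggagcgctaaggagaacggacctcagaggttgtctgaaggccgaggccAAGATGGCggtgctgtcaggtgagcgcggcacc
ATP5ME, complex V, chr4:674227-674526, - strand: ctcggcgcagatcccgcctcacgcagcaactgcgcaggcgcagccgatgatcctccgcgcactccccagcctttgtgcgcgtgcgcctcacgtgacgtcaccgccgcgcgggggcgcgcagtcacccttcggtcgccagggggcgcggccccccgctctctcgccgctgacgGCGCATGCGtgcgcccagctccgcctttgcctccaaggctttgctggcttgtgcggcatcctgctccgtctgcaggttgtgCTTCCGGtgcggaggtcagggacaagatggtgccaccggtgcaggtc
The matches describe letters only, and no binding was measured. Between the high and low dose of Polygalae Radix, described next, the core subunits with the NRF1 letters had a median log2 fold change of -1.20 and those without -1.46. For GABPA the medians were -1.35 and -1.40, and for YY1 -1.54 and -1.35. These differences between medians were not tested.

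The first comparison asked how the members differed between 380 and 15.2 µg/mL of Polygalae Radix, the root of Polygala used in Korean herbal medicine. All 77 core subunits fell at the high dose (edgeR quasi-likelihood test, Benjamini-Hochberg adjusted p under 0.05). With 3 isoforms, 80 of 82 tested nuclear members fell and none rose. Across all 18396 genes tested, 57% were called in this comparison and 29.1% were called lower, so many other genes moved as well. The core median was -1.41 on the log2 scale, against 0.04 over all genes and -0.18 over 7353 abundant protein-coding genes, of which 46.9% were called lower. In 64 core subunits the fall was past 2-fold and in 8 past 4-fold. Both high-dose libraries lay below both low-dose libraries for each of the 77. The share of all genes that separated in this way is not given here, so this count has no background. As a share of all counts, the nuclear subunits made up 0.976% ± 0.021 (SD, n = 2) at the low, 0.748% ± 0.247 at the medium and 0.449% ± 0.109 at the high dose, against 0.733% ± 0.004 (n = 3) in vehicle. These values are relative to the other transcripts of each library, and in bulk RNA fewer cells of a type and less RNA per cell cannot be told apart.

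**Figure D2:**
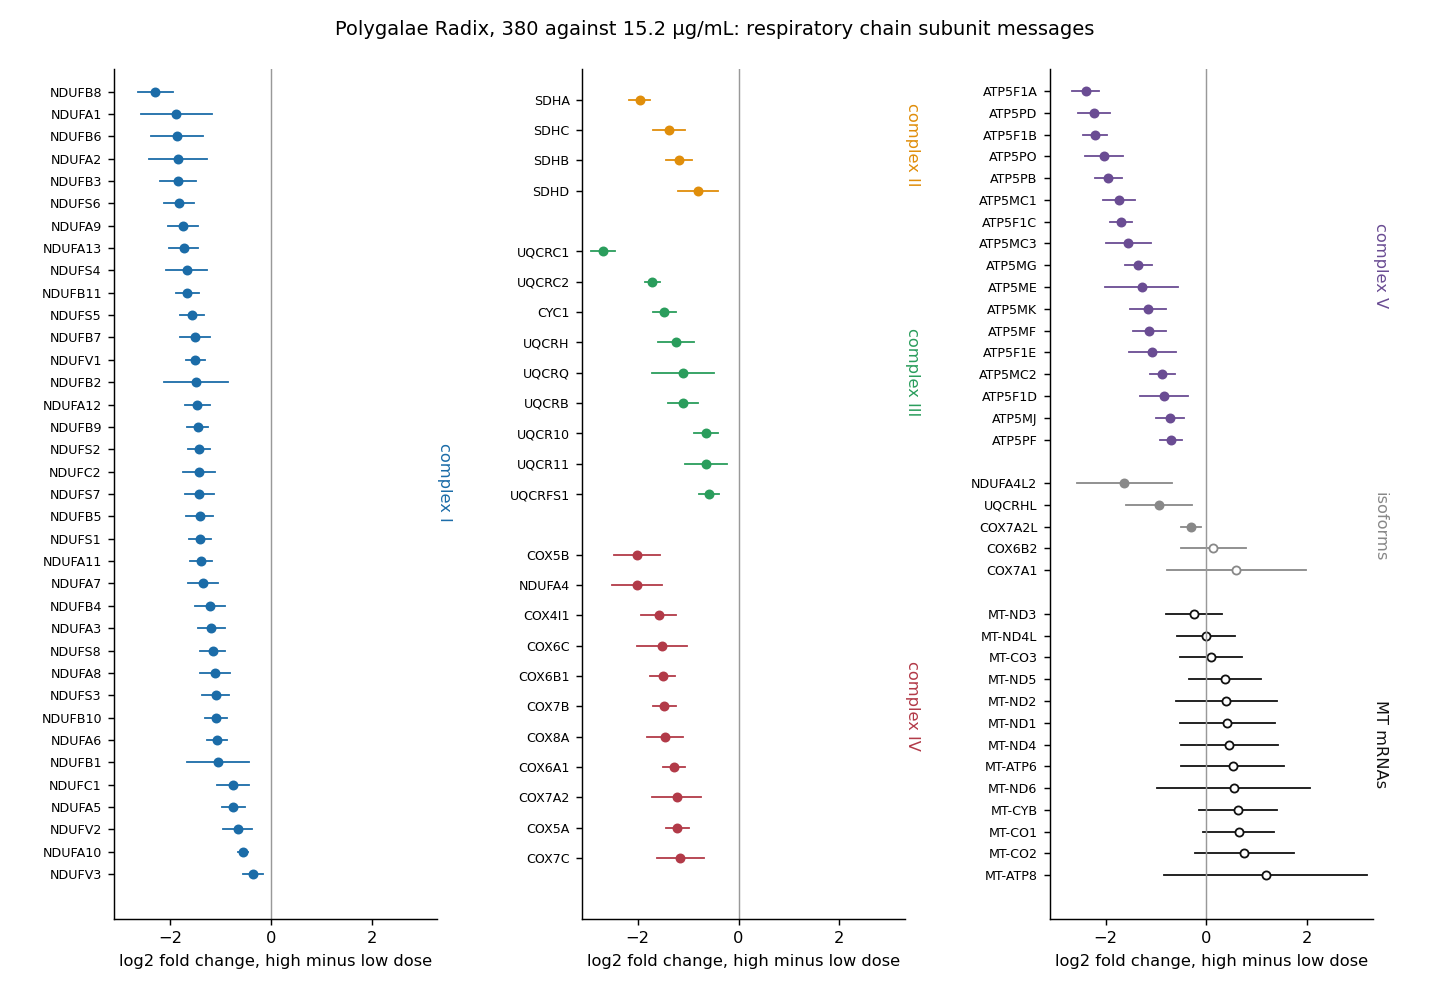
Log2 fold change of every tested member between 380 and 15.2 µg/mL Polygalae Radix (horizontal axis), by complex, with bars of ±2 SE and filled points for an adjusted p under 0.05 (edgeR, n = 2 against 2). All 77 core subunits are filled and lie left of 0, from -2.69 (UQCRC1) to -0.35 (NDUFV3), and none of the 13 mitochondrial mRNAs is filled.

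In complex I, 36 of 36 subunits fell, with a median of -1.42. The 7 subunits of its catalytic core, which hold the flavin and the iron-sulfur clusters, had a median of -1.40 and the 29 accessory subunits one of -1.45. NDUFS1, the large iron-sulfur subunit, stood at 137 and 136 CPM at the low dose and at 43.6 and 59.2 CPM at the high dose, against 129.8, 132 and 132 CPM in vehicle. Its log2 fold change was -1.40 ± 0.11 (SE, adjusted p = 1.1e-14). NDUFV1, the subunit that binds NADH, went from 107 and 104 CPM to 35.7 and 38.9 CPM (-1.497 ± 0.095, adjusted p = 1.62e-17). For both genes the high-dose libraries lay far below low dose and vehicle, which lay close to each other.

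The lowest fold change of complex I belonged to NDUFB8 (chromosome 10, 100523740 to 100530000, - strand), an accessory subunit whose loss is used as a sign of failed complex I assembly. It went from 94.7 and 91.8 CPM to 17.2 and 20.8 CPM (-2.29 ± 0.18, adjusted p = 1.04e-14), with 68.9, 68.7 and 69.9 CPM in vehicle. At the other end, NDUFV3 (chromosome 21, 42879644 to 42913304, + strand), an accessory subunit of the NADH-binding part, moved from 33.7 CPM in both low-dose libraries to 28.8 and 24.2 CPM (-0.35 ± 0.10, adjusted p = 0.00283). NDUFA10 also fell by less than the median, from 93.8 and 93.1 CPM to 63.8 and 63.6 CPM (-0.55 ± 0.05, adjusted p = 5.01e-13). The size of the fall therefore varied among subunits of the same complex.

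All 4 subunits of complex II, which is also an enzyme of the citrate cycle and has no mitochondrially encoded part, fell with a median of -1.28. SDHA, the flavoprotein that oxidises succinate (chromosome 5, 218241 to 256700, + strand), stood at 112 and 118 CPM at the low and 26.6 and 31.9 CPM at the high dose, against 111, 109.5 and 106 CPM in vehicle. This was a log2 fold change of -1.96 ± 0.10 (adjusted p = 4.39e-20). The iron-sulfur subunit SDHB went from 66.3 and 65.8 CPM to 28.3 and 29.9 CPM (-1.18 ± 0.13, adjusted p = 1e-10). The membrane anchor SDHD fell least of the 4, from 62.8 and 64.8 CPM to 24.9 and 47.3 CPM (-0.81 ± 0.20, adjusted p = 0.000504), and its class 1 high-dose library lay above the vehicle level of 44.5 to 45.2 CPM.

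Complex III held the member with the lowest fold change of all. UQCRC1, a core protein of the matrix side (chromosome 3, 48599002 to 48610976, - strand), stood at 125 and 129.6 CPM at the low dose, 18.3 and 21.1 CPM at the high dose and 115, 118 and 113 CPM in vehicle. The change of -2.69 ± 0.12 (adjusted p = 2.25e-22) was to 0.155 of the low-dose level. Its partner UQCRC2 went from 171 and 175 CPM to 51.9 and 53.9 CPM (-1.71 ± 0.07, adjusted p = 1.59e-22). By contrast UQCRFS1, the Rieske iron-sulfur protein (chromosome 19, 29205321 to 29213541, - strand), went from 278 and 315 CPM to 189.9 and 205 CPM (-0.59 ± 0.10, adjusted p = 1.52e-06). Cytochrome c1, encoded by CYC1, fell from 153 and 166 CPM to 59.5 and 55.5 CPM (-1.47 ± 0.11). All 9 members of the complex fell, with a median of -1.59 for the 4 catalytic and core proteins and of -1.10 for the 5 small subunits.

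In complex IV all 11 core subunits fell, with a median of -1.47. COX5B, a zinc-binding subunit of the matrix side (chromosome 2, 97646040 to 97648383, + strand), went from 91.5 and 88.3 CPM to 15.6 and 28.4 CPM (-2.01 ± 0.23, adjusted p = 6.25e-10). NDUFA4 (chromosome 7, 10931951 to 10940256, - strand), named for complex I but a subunit of cytochrome c oxidase, went from 194 and 182 CPM to 29.4 and 63.1 CPM (-2.01 ± 0.25, adjusted p = 4.3e-09). COX4I1, the ubiquitous form of the largest nuclear subunit, went from 243 and 228 CPM to 61.6 and 95.4 CPM (-1.58 ± 0.17, adjusted p = 2.38e-10). In all 3 genes the class 2 high-dose library was the lower of the pair, and both high-dose libraries lay below vehicle, which for COX5B was at 59.6 to 60.6 CPM. COX5A, a subunit that joins COX4I1 early in assembly, changed by -1.21 ± 0.11.

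Complex V fell with 17 of 17 subunits and a median of -1.35. The 2 subunits that form the catalytic hexamer of its F1 head were among the members with the lowest fold changes. ATP5F1A (chromosome 18, 46080248 to 46104334, - strand), the alpha subunit, stood at 380.1 and 389 CPM at the low and 62.7 and 83.1 CPM at the high dose, against 339.9, 335 and 341 CPM in vehicle (-2.40 ± 0.14, adjusted p = 1.07e-18). ATP5F1B (chromosome 12, 56638175 to 56646068, - strand), the beta subunit, went from 1084 and 1081 CPM to 201 and 266 CPM, with 959, 966 and 997 CPM in vehicle (-2.21 ± 0.12, adjusted p = 9.99e-20). For both genes the high-dose libraries lay far below every vehicle library. The 5 subunits of the F1 part, head and central stalk together, had a median of -1.70. The 4 of the peripheral stalk, where ATP5PD changed by -2.23 ± 0.16, had a median of -1.99. Medians were -1.55 for the 3 genes of the c-ring and -1.15 for the 5 small membrane subunits. ATP5F1D, the delta subunit of the central stalk, fell less, from 33.4 and 34 CPM to 24.8 and 13.5 CPM (-0.84 ± 0.24, adjusted p = 0.00256). It is also a core subunit whose low-dose libraries lay below vehicle, at 40.6 to 41.9 CPM.

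**Figure D3:**
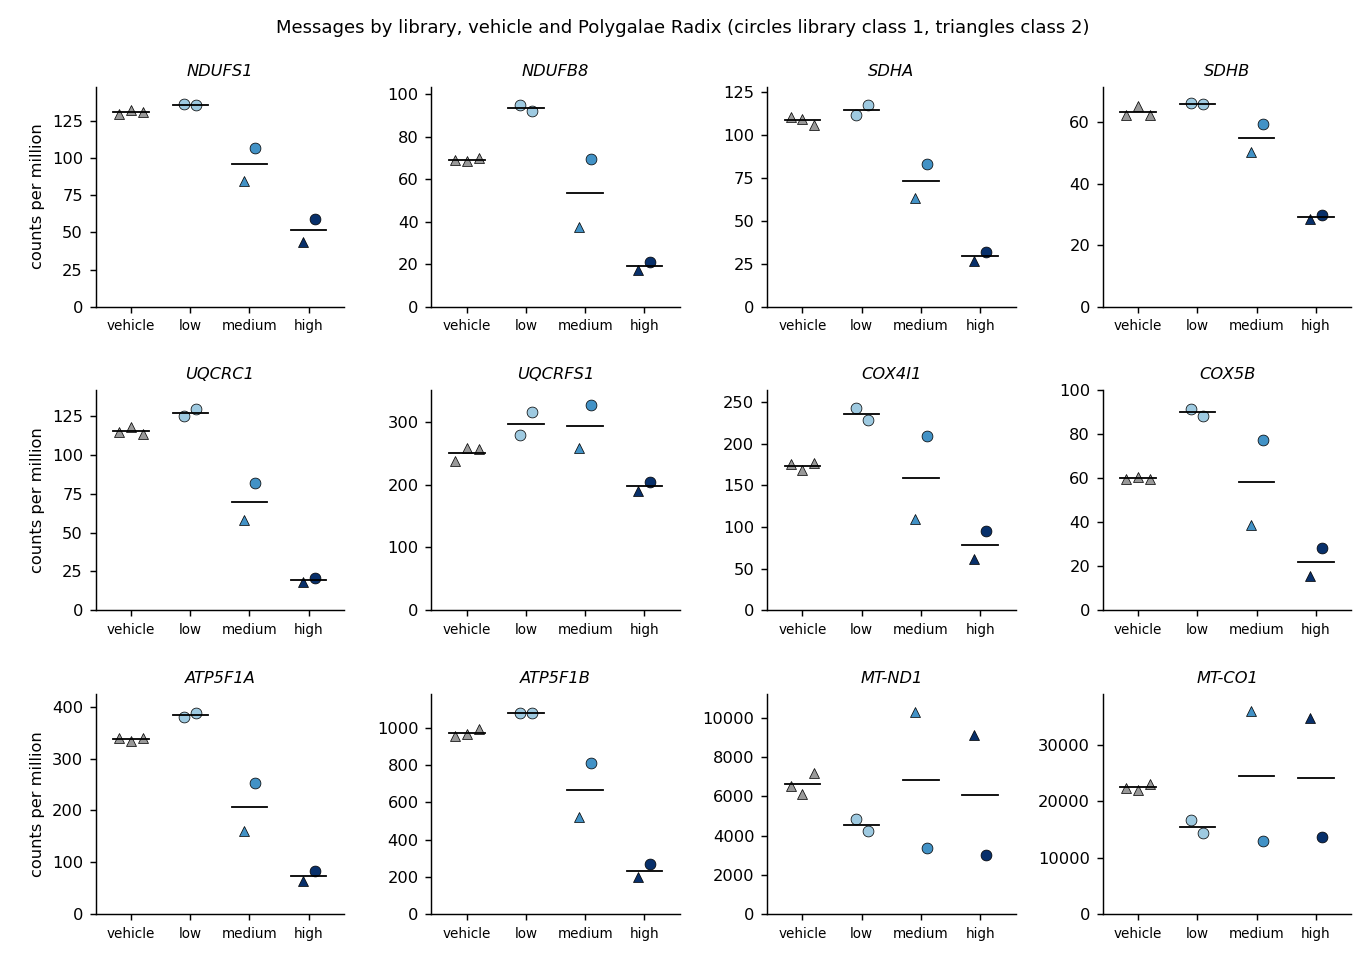
Level (CPM, vertical axes from 0) of 12 members in each vehicle and Polygalae Radix library by dose, with circles for class 1, triangles for class 2 and lines at the group means. UQCRC1 goes from 125 and 129.6 CPM at the low dose through 58.2 and 81.8 CPM to 18.3 and 21.1 CPM at the high dose, while MT-CO1 separates by class, at 34724 and 13586 CPM at the high dose.

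The fall was also found within a library class. With the class as a covariate, all 77 core subunits fell with a median of -1.35, where 31% of all genes were lower. Inside class 1, where the high dose was 1 library assumed to vary like the other groups, all 77 fell with a median of -1.33, where 30.9% of all genes were lower. Set against the mean of the low dose, the core medians of the single libraries were -1.60 for the class 2 and -1.30 for the class 1 high-dose library, and within 0.03 of 0 for the low dose. Leaving out each of the 4 libraries in turn gave 74 to 80 called nuclear members, with shares of all genes not given here.

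Other features of the high-dose libraries moved with this result. The summed level of 8 genes that mark A549 epithelium, among them keratins and NAD(P)H-dependent reductases, ran from 19054 to 19375 CPM in vehicle, 20558 to 21555 at the low, 10508 to 14854 at the medium and 3904 to 4968 CPM at the high dose. Markers of other cell types stayed low: 3 immune markers summed to 0.175 to 0.472 CPM at the high dose with PTPRC and CD3E at 0, 3 endothelial markers to 0.172 to 0.292 CPM, and 3 fibroblast markers to 14.3 to 19.0 CPM, nearly all COL1A1, with DCN at 0. The lowest library total of the series, 17113963 counts, was a high-dose library. The part of these differences in the fall of the subunits was not tested.

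At the medium dose of Polygalae Radix (76 µg/mL) the fall was partial. Of the members, 31 fell against the low dose and none rose, all of them core subunits: 17 of complex I, 2 of complex II, 2 of complex III, 3 of complex IV and 7 of complex V. In this comparison 11.8% of all genes were called and 6.82% were lower. UQCRC1 stood at 58.2 and 81.8 CPM (-0.86 ± 0.11, adjusted p = 1.8e-07), ATP5F1A at 161 and 254 CPM (-0.89 ± 0.13, adjusted p = 3.2e-06) and ATP5F1B at 520.0 and 813 CPM (-0.70 ± 0.11). The means of 75 of the 77 core subunits were ordered high below medium below low, and both high-dose libraries lay below both medium-dose libraries in 62. The shares of all genes with these orders are not given here.

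The 2 medium-dose libraries differed. The class 2 library had a core median of -0.73 against the low dose and lay below both low-dose libraries in 74 subunits, whereas the class 1 library had a median of -0.17 and did so in 56. The class 1 library lay above the class 2 library in 72 subunits, most for ATP5ME, a small membrane subunit of ATP synthase, at 73.8 against 22.4 CPM, a ratio of 3.29. Next came NDUFB2 (2.97), UQCRQ (2.95) and NDUFA2 (2.91). The count depended on which library was used: 6 members were called without medium replicate 2, the class 2 library (3.5% of all genes), and 68 without medium replicate 3 (23.5%). It was 14 without low replicate 2 (5.25%) and 23 without low replicate 3 (6.18%). Inside class 1, 12 were called lower (6.42% of all genes), and in a fit of the 4 libraries alone 0 were (0% of all genes called), with 39 called by DESeq2 on all libraries (13.5% of all genes). The low dose itself lay above all vehicle libraries in 73 core subunits, but both its libraries were class 1 and vehicle class 2. For the counts by order of libraries in this paragraph, the shares of all genes are not given here.

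None of the 13 mitochondrial mRNAs was called between the high and the low dose, with 0 at an unadjusted p under 0.05 and 0 by DESeq2, although without a filter on low counts 11 were called, 10 of them higher, where 26.9% of all genes were called and 11.7% were higher. MT-CO1, the catalytic subunit of cytochrome c oxidase (mitochondrial genome, 5904 to 7445), stood at 16684 and 14323 CPM at the low and 34724 and 13586 CPM at the high dose (0.64 ± 0.35, adjusted p = 0.118). MT-ND1 of complex I (3307 to 4262) stood at 4852 and 4218 CPM against 9120 and 2997 CPM (0.42 ± 0.47, adjusted p = 0.465). In both genes the class 2 high-dose library was above and the class 1 library below the low dose. Without high replicate 3, the class 1 library, MT-CO1 was called higher (1.14, adjusted p = 0.0101), and without high replicate 2 its value was -0.20 (adjusted p = 0.703). MT-CYB, the cytochrome b of complex III, changed by 0.63 ± 0.39 (adjusted p = 0.164), MT-ATP6 of complex V by 0.52 ± 0.51 (adjusted p = 0.405) and MT-ND6 by 0.54 ± 0.76 (adjusted p = 0.564).

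The direction of the mitochondrial median turned with the handling of class. It was 0.45 in the fit without class and -0.31 with class as a covariate, where again none was called. Inside class 1, with 1 high-dose library, it was -0.50 and 4 of 13 fell, a share near the 30.9% of all genes that were lower in that fit: MT-ND1 (-0.63, adjusted p = 0.03), MT-ND4 (-0.60, adjusted p = 0.018), MT-ATP6 (-0.57, adjusted p = 0.035) and MT-CO3 (-0.50, adjusted p = 0.021). Within that class the core nuclear median of -1.33 was further from 0 than that of the mitochondrial mRNAs; this difference was not tested. The 2 mitochondrial rRNAs were not called between high and low dose. The nuclear genome holds copies of mitochondrial genes, and the sources used here do not give how reads were shared with them.

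**Figure D4:**
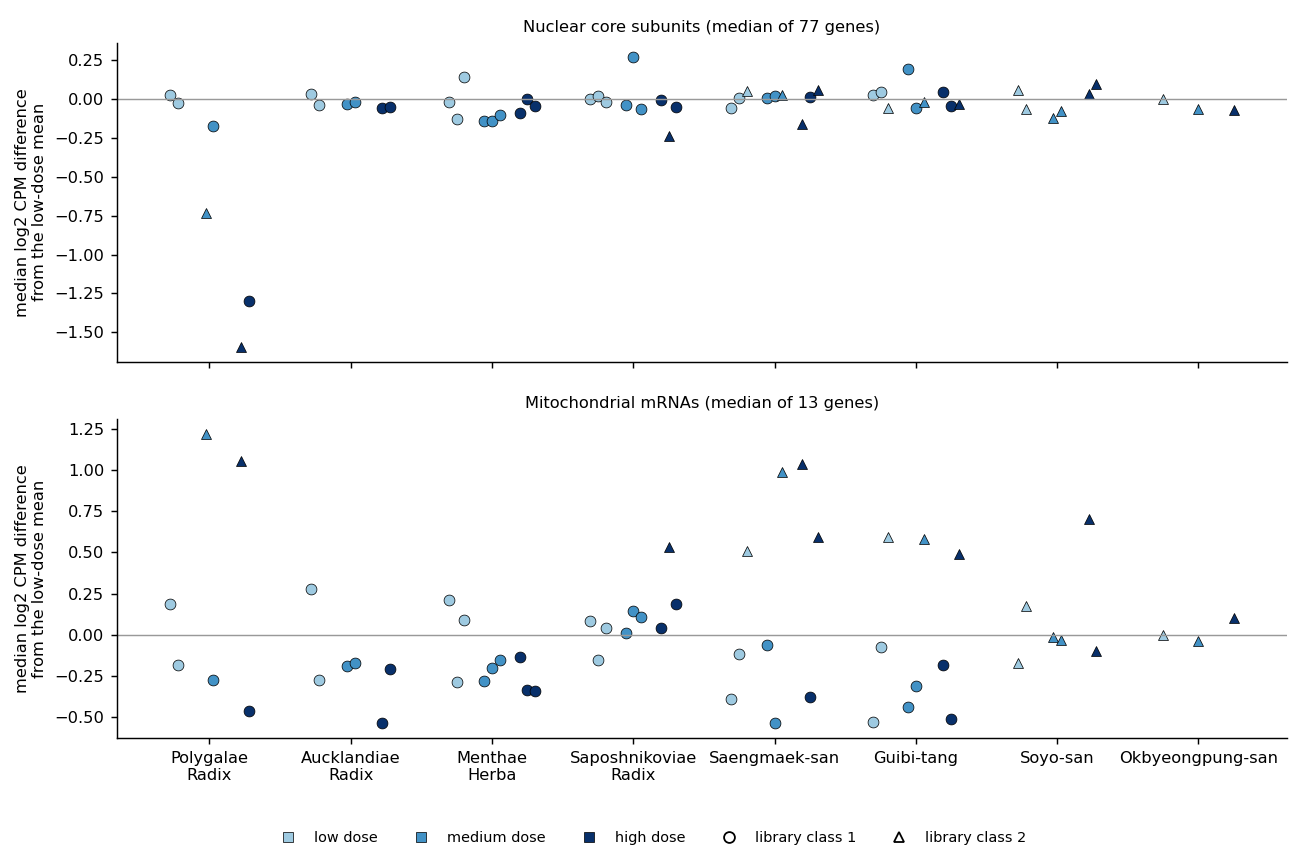
Median log2 CPM difference from the mean of the extract's low-dose libraries (vertical axes), 1 point a library, over the 77 core subunits (upper panel) and the 13 mitochondrial mRNAs (lower panel), shaded by dose, with circles for class 1 and triangles for class 2. In Polygalae Radix the core medians of the high dose are -1.60 and -1.30, and the mitochondrial medians 1.052 in the class 2 and -0.46 in the class 1 library.

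Of the 5 isoforms and paralogues tested, 3 fell. COX7A2L moved from 95.1 and 92.1 CPM to 67.5 and 84 CPM (-0.30 ± 0.10, adjusted p = 0.0095). NDUFA4L2, a hypoxia-induced paralogue of NDUFA4, moved from 1.01 and 1.03 CPM to 0.507 and 0.199 CPM (-1.63 ± 0.47, adjusted p = 0.00333), a call lost without high replicate 3. UQCRHL moved from 9.3 and 6.39 CPM to 4.21 and 3.95 CPM (-0.95 ± 0.33, adjusted p = 0.0125) and was lost without low replicate 2 or high replicate 3. Its coding sequence is nearly that of UQCRH, so how reads were split between them is uncertain. COX6B2, a testis form, (0.13, adjusted p = 0.751) and COX7A1, a muscle form (0.60, adjusted p = 0.481), were not called.

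Neighbouring mitochondrial genes were counted from lists chosen by function, to be read against the 29.1% of all genes called lower, the 27.9% called higher and the 46.9% of abundant protein-coding genes called lower. All 10 carriers and electron-entry proteins fell with Polygalae Radix, at a median of -1.34. They included the electron transfer flavoprotein subunit ETFB (-2.34 ± 0.16, adjusted p = 5.25e-16) and the adenine nucleotide carrier SLC25A5 (-2.22 ± 0.14, adjusted p = 1.47e-17). All 13 citrate cycle genes fell as well, at a median of -1.44, led by OGDH of the 2-oxoglutarate dehydrogenase (-2.25 ± 0.14) and fumarase, FH (-2.12 ± 0.15). Of 78 mitochondrial ribosomal proteins, 60 fell and 1 rose, at a median of -0.72. MRPL24 changed by -1.91 ± 0.11 and MRPL28 by -1.67 ± 0.11, and the 1 that rose, MRPL50 (0.25 ± 0.08, adjusted p = 0.00776), was lost in 4 of the alternatives tried.

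Of 50 assembly factors 27 fell and 6 rose, at a median of -0.34. The ATP synthase factor FMC1 changed by -2.14 ± 0.47 (adjusted p = 0.00015) and the cytochrome c oxidase factor PET100 by -1.59 ± 0.34, whereas SDHAF1, an assembly factor of complex II, rose by 0.84 ± 0.13 (adjusted p = 6.08e-07) and COA7, a complex IV factor, by 0.76 ± 0.06. Of 17 genes for expression of mitochondrial DNA, 6 fell and 5 rose, shares near those over all genes (29.1% lower and 27.9% higher): SLIRP, which stabilises mitochondrial mRNAs, changed by -1.31 ± 0.14 and the mitochondrial single-strand binding protein SSBP1 by -1.03 ± 0.11, while the helicase TWNK rose by 0.65 ± 0.06 and the termination factor MTERF1 by 0.81 ± 0.09. Of 7 tested regulators of mitochondrial biogenesis 3 were called, all of them higher. They included PPRC1, a PGC-1 related coactivator, at 1.20 ± 0.16 (adjusted p = 2.93e-08) and GABPB1, the partner of GABPA, at 0.88 ± 0.07 (adjusted p = 2.03e-14).

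Against vehicle, 68 nuclear members were lower at the high dose of Polygalae Radix: 66 core subunits (33 of complex I, 3 of complex II, 6 of complex III, 10 of complex IV, 14 of complex V) and 2 isoforms. In this comparison 29.5% of all genes were called lower. The core median was -1.02, with UQCRC1 at -2.55 ± 0.11 (adjusted p = 2.13e-22), ATP5F1B at -2.06 ± 0.11 and SDHA at -1.89 ± 0.10. In a fit of the class 2 libraries, where the high dose was 1 library assumed to vary like the other groups, 75 were lower (27.5% of all genes), and with the class covariate 74 (31.2%). None of the 13 mitochondrial mRNAs was called (0 at an unadjusted p under 0.05, 0 by DESeq2), while inside class 2, 2 were higher (24.2% of all genes). This comparison uses the same high-dose libraries as the one above.

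For Aucklandiae Radix, also given at its own top concentration, few members were called. At 370 against 14.8 µg/mL, 5 of 82 nuclear members fell and none rose, where 18.4% of all genes were called and 9.33% were lower. Of the 77 core subunits 4 fell, where 14.3% of the 7353 abundant protein-coding genes were lower. The members thus fell less often than genes in general. The core median was -0.06. UQCRC1 moved from 133 and 129 CPM to 102 and 103 CPM (-0.35 ± 0.11, adjusted p = 0.0161) and CYC1 from 166 and 163 CPM to 126 and 136 CPM (-0.34 ± 0.11, adjusted p = 0.0273). The complex I subunits NDUFA7 (-0.45 ± 0.14, adjusted p = 0.0162) and NDUFS7 (-0.38 ± 0.14, adjusted p = 0.045) and the testis isoform COX6B2 (-1.16 ± 0.38, adjusted p = 0.0281) made up the rest. For each of UQCRC1 and CYC1 the high-dose libraries lay below both low-dose libraries. ATP5F1B, at 1121 and 1083 CPM against 964 and 981 CPM, was not called (-0.18 ± 0.11, adjusted p = 0.305, interval of ±2 SE from -0.40 to 0.04). Leaving out any 1 of the 4 libraries left 0 or 1 calls, with shares of all genes not given here. A fit of the 4 libraries alone gave 19 (33.4% of all genes called), and one inside class 1 gave 16 (15.4% of all genes lower). The class covariate gave 9 (12.4% lower) and DESeq2 gave 6 (18.2% called).

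The mitochondrial mRNAs of Aucklandiae Radix were all below 0 at a median of -0.36, yet none was called (0 at an unadjusted p under 0.05, 0 by DESeq2). MT-CO1 moved from 17216 and 14468 CPM to 10412 and 11128 CPM (-0.56 ± 0.35, adjusted p = 0.314), with both high-dose libraries below both low-dose libraries. All these libraries are class 1, and a fit of class 1 alone called 6 mitochondrial mRNAs lower (15.4% of all genes), MT-CO1 at -0.56 with an adjusted p of 3.3e-05. With the class covariate 3 were lower (12.4% of all genes). The mitochondrial rRNAs MT-RNR1 (-0.67, adjusted p = 0.045) and MT-RNR2 (-0.69, adjusted p = 0.024) fell.

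The change from low to high dose was then compared between the 2 extracts, whose library names carry the same prefix (11). The top doses differ by little but are not the same (380 and 370 µg/mL). Of the 95 members, 79 differed between the extracts, where 45.9% of all genes did. Among them 77 were lower with Polygalae Radix, namely 74 core subunits and 3 isoforms, where 25.3% of all genes were lower. The 3 core subunits that were not called were ATP5F1D (-0.39, adjusted p = 0.359), UQCR11 (-0.68, adjusted p = 0.0547) and NDUFB1 (-0.95, adjusted p = 0.0663). Higher with Polygalae Radix, as 20.5% of all genes were, were COX6B2 (1.29 ± 0.50, adjusted p = 0.0311) and MT-CO1 (1.20 ± 0.50, adjusted p = 0.0453). Each of these calls was lost in 9 of the alternatives. Leaving out each library in turn gave 71 to 80 members, with shares of all genes not given here.

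**Figure D5:**
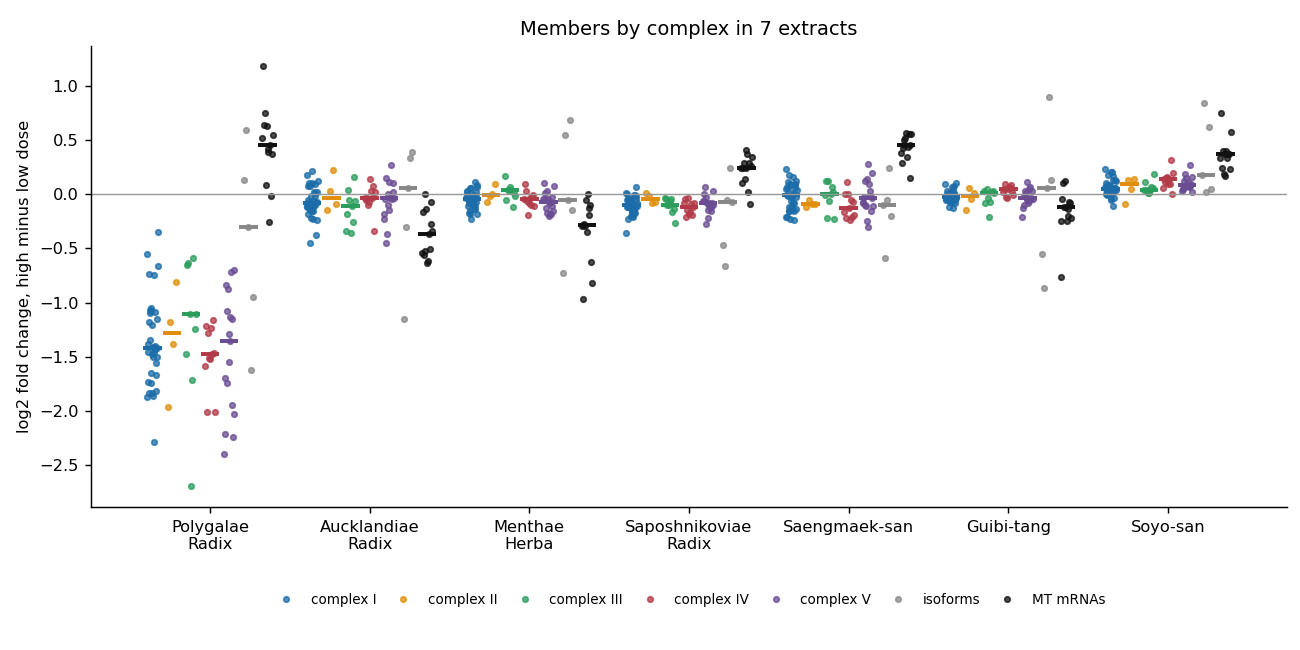
Log2 fold change between the high and the low dose (vertical axis) in the 7 extracts with replicates, 1 point a tested member, with a short bar at the median of each complex or group. Polygalae Radix is the extract whose nuclear complexes lie well below 0, with a core median of -1.41, against -0.06 for Aucklandiae Radix and 0.07 for Soyo-san.

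In the other extracts no member passed the test between high and low dose. For Menthae Herba 15.5% of all genes were called and 0 of 95 members (edgeR, 2 nuclear and 1 mitochondrial at an unadjusted p under 0.05, 0 by DESeq2). ATP5F1B stood at 1076, 1039 and 1139 CPM at the low and 1111, 1158 and 1223 CPM at the high dose (0.10 ± 0.09, adjusted p = 0.549, interval -0.08 to 0.28). NDUFA4L2 had 1.26, 1.47 and 1.74 CPM at the low and 2.67, 2.36 and 2.19 CPM at the high dose, with no overlap, but did not pass (0.68 ± 0.28, adjusted p = 0.0937). In a fit of class 1 alone, which holds all Menthae Herba libraries and called 25.6% of all genes, it was called with CYC1 (0.17) as higher and MT-CO1 (-0.29) and MT-ND5 (-0.63) as lower. For MT-CO1 the high-dose libraries, at 12982, 11966 and 11772 CPM, lay below all low-dose libraries, at 14086 to 15736 CPM.

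Saposhnikoviae Radix and Saengmaek-san changed few genes at all, 0.0707% in each, and 0 members. In Saposhnikoviae Radix 1 nuclear member had an unadjusted p under 0.05 and in Saengmaek-san 3 did, with 0 by DESeq2 in each. The core medians were -0.09 and -0.04, and the intervals for ATP5F1B ran from -0.25 to 0.12 in both. ATP5F1B stood at 829, 1008 and 1124 CPM in the Saengmaek-san high-dose libraries, of which the first and the last are class 2, and its change of -0.07 became 0.04 without high replicate 1, the library at 829 CPM. Guibi-tang had 2.94% of genes called and 0 members (2 nuclear at an unadjusted p under 0.05, 0 by DESeq2), with ATP5F1B at 1038, 1012 and 1004 CPM against 946, 902 and 947 CPM (-0.13 ± 0.09, adjusted p = 0.71). Inside class 1 UQCRC1 (-0.28) and ATP5F1A (-0.23) were called lower there (2.64% of all genes). Its NDUFA4L2 change of 0.90 ± 0.28 did not pass (adjusted p = 0.0771).

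Soyo-san, whose libraries were all class 2, had 1.24% of genes called between high and low dose and 0 members (0 at an unadjusted p under 0.05, 0 by DESeq2). The core median was 0.07, with single subunits from -0.11 to 0.32. Okbyeongpung-san, with 1 library a dose and no test, had a core median of -0.07 between high and low dose, from -0.23 for ATP5F1D to 0.08 for COX6A1, and a mitochondrial median of 0.10. None of its members passed 2-fold there, as 4.83% of all genes did. At the medium dose of the 6 other replicated extracts 0 members were called, where 0.00544% (Aucklandiae Radix), 0.174% (Menthae Herba), 0.0109% (Soyo-san) and 0% (the others) of all genes were. At an unadjusted p under 0.05 there were 3 nuclear members in Menthae Herba and 0 in the others, and DESeq2 called 0. The difference in the change from low to high dose called 0 members between Menthae Herba and Saposhnikoviae Radix, where 6.43% of genes differed, and 0 between Guibi-tang and Saengmaek-san, where 0.451% did.

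Against vehicle, the high doses of several of these extracts had higher nuclear subunits, in comparisons that share the 3 vehicle libraries. The core medians of their low-dose libraries lay above vehicle too, and the low doses were not tested against vehicle. Soyo-san is the 1 replicated extract with the class of vehicle in every library. Of its nuclear members 29 were higher and none lower, where 13% of all genes were higher: 17 of complex I, 4 of complex III, 5 of complex IV, 2 of complex V and NDUFA4L2. COX5B stood at 59.6, 60.6 and 59.9 CPM in vehicle and at 82.5 and 99.4 CPM at the high dose (0.60 ± 0.20, adjusted p = 0.0193), and NDUFA4L2 at 1.66, 1.16 and 1.66 CPM against 3.03 and 3.81 CPM (1.19 ± 0.30, adjusted p = 0.00276). Both high-dose libraries lay above vehicle for each, but without high replicate 2 neither gene passed the test. COX5B also did not pass in the fit inside class 2, which holds all libraries of this comparison. The low dose also lay above vehicle, since the core medians of its libraries were 0.27 and 0.15, against 0.28 and 0.32 at the high dose and 0.08 and 0.12 at the medium dose. Without 1 library the count ran from 9 to 26, with shares of all genes not given here.

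For Menthae Herba, 58 nuclear members were higher than vehicle and 1 lower, and for Aucklandiae Radix 44 were higher and 2, COX6B2 and ATP5F1D, lower, the second lost in 4 of the alternatives. Of all genes 14.6% and 18.5% were higher, and 15% and 17.3% lower. The low doses lay about as far above vehicle. Core medians of the Menthae Herba libraries were 0.42, 0.30 and 0.55 at the low and 0.34, 0.41 and 0.40 at the high dose. In Aucklandiae Radix they were 0.41 and 0.34 at the low and 0.32 and 0.34 at the high dose. The libraries of both extracts are class 1 and the vehicle libraries class 2. With the class covariate the counts of nuclear members called were 35 and 27 (31.3% and 37.3% of all genes). Of the 13 mitochondrial mRNAs, 10 were lower with Menthae Herba and 5 with Aucklandiae Radix, each at a median of -1.06. With the covariate 1 and 0 were lower, at medians of 0.02 and 0.00. The covariate is estimated from the groups of mixed class. In these 2 comparisons class and extract cannot be told apart. Saengmaek-san had 11 nuclear members higher (1.96% of all genes), Guibi-tang 5 (4.51%) and Saposhnikoviae Radix 2 (0.593%). Leaving out each library in turn gave 3 to 13, 0 to 3 and 0 to 1 calls, with shares of all genes not given here. Core medians of the Saengmaek-san libraries against vehicle were 0.14, 0.22 and 0.28 at the low and 0.001, 0.22 and 0.27 at the high dose. In Guibi-tang they were 0.23, 0.24 and 0.155 at the low and 0.25, 0.13 and 0.19 at the high dose. In Saposhnikoviae Radix they were 0.29, 0.31 and 0.25 at the low and 0.29, 0.075 and 0.24 at the high dose. With the class covariate 21, 3 and 6 were called in either direction (15.7%, 18.9% and 7.01% of all genes), and inside class 2, 20, 1 and 0 (4.51%, 1.66% and 0.0986%). NDUFB1, an accessory subunit of complex I, was called in each at 0.91, 0.83 and 1.01, and this call was lost in 6, 7 and 7 of the alternatives, among them each one that left out a vehicle library. The library names of vehicle carry a prefix of their own (D1), although every sample title names batch D. What the prefix stands for is not stated, and extract and prefix cannot be told apart in these comparisons.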

How the data were processed

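The authors deposited a table of expected counts per Ensembl gene, 1 column for each of 60 libraries of A549 RNA. Per the submitters' processing notes, the tools were RSEM 1.3.3, STAR 2.7.3a, Trim Galore 0.6.5 and FastQC 0.11.9, with GRCh38 (hg38). The sources used here give neither the annotation release nor the strand setting. Symbols were matched through the gene name table and positions taken from GENCODE release 29.

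Expected counts, 9.95% of which carried decimals, were rounded. TMM normalisation and filterByExpr left 18396 genes, and 57 libraries in 22 groups were fitted with edgeR 4.0.16 (R 4.3.3, limma 3.58.1; quasi-likelihood F-test, two-sided, 35 residual degrees of freedom). P-values were adjusted by Benjamini-Hochberg over all genes in each of 24 contrasts, with a threshold of 0.05. The SE was taken as |log2 fold change| over the root of F. CPM of the members use the normalised library totals. The CPM of the class gene and of the cell type markers use raw totals, so they are on another scale. Shares are of raw totals. Among 48 pairs of libraries of the same group 0 held identical values, and the lowest chi-square per gene was 2.44. Okbyeongpung-san, with 1 library a dose, stayed out of the fit, and 2 readthrough genes, ATP5MF-PTCD1 and NDUFC2-KCTD14, out of the members.

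The members, the gene lists and the tests were chosen with earlier results of these data known. Named genes were drawn from 18 reference members. They were also drawn, for each group of members or list, from the 2 called members highest and the 2 lowest in log2 fold change. Not all of these genes are printed for every comparison. Others were named after their values were seen, for being the extreme of a range, ratio or count, or among 5 or fewer genes called.

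There were 8 alternatives chosen with the tests: DESeq2 size factors, mitochondrial genes left out of totals, no filter, the DESeq2 1.42.0 Wald test, a class covariate, a replicate block, only the libraries compared, and each library left out in turn. Fits inside class 1 or class 2 were added after the data were seen. Replicate numbers were checked for pairing by correlating deviations from group means. In Saengmaek-san (0.252, 0.273 and 0.508) and Guibi-tang (0.205, 0.138 and 0.449), medium against low dose, all 3 pairs passed 0.1, and 0 members were called with or without the block. The scripts were tested on simulated data.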

Additional observations from a re-analysis of the deposited data

Results flagged for a closer look

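The change from low to high dose differed between Polygalae Radix and Aucklandiae Radix in 79 of the 95 members tested, by a test of the difference itself (edgeR quasi-likelihood test, Benjamini-Hochberg adjusted over 18396 genes), where 45.9% of all genes differed. UQCRC1 went from 125 and 129.6 CPM to 18.3 and 21.1 CPM in the first extract and from 133 and 129 CPM to 102 and 103 CPM in the second.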

How the results depend on the processing

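The counts of members called between doses of Polygalae Radix, high against low, stayed within 1.5 times under each alternative for the nuclear subunits. Of the counts of members, 343 stayed within that limit and 89 did not. Of the values of named genes 1765 kept their direction and side of the threshold, 187 lost the call, 48 gained one and 21 changed sign. The values that changed sign belonged to genes that had not passed the test.

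Between high and low dose of Polygalae Radix, MT-ND1, MT-ND4, MT-ND6, MT-ATP6 and MT-CO3 were above 0 at first and below 0 with the library class as a covariate, at -0.32, -0.31, -0.58, -0.30 and -0.32. Inside class 1 they were at -0.63, -0.60, -0.68, -0.57 and -0.50, with MT-CYB at -0.18 and MT-CO1 at -0.22. Leaving out 1 library gave -0.61 to 0.985 for MT-ND1, -0.58 to 1.02 for MT-ND4, -0.66 to 1.34 for MT-ND6, -0.56 to 1.10 for MT-ATP6, -0.48 to 0.46 for MT-CO3, -0.16 to 1.11 for MT-CYB and -0.20 to 1.14 for MT-CO1. ATP5F1B in Saengmaek-san ran from -0.17 to 0.044.

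Percentages after a count are the share of all genes called in the same fit. Without a filter on low counts, nuclear members called between high and low dose were 1 each in Saposhnikoviae Radix (0.341%), Saengmaek-san (1.2%) and Guibi-tang (1.31%). Mitochondrial mRNAs called were then 11 in Polygalae Radix (26.9%), 8 in Aucklandiae Radix (7.76%), 8 in Menthae Herba (6.3%), 11 in Saengmaek-san, 5 in Soyo-san (1.36%), 3 in Saposhnikoviae Radix and 1 in Guibi-tang. Medium against low dose gave 63 members in Polygalae Radix (6.06%), 10 in Menthae Herba (0.662%), and 1 each in Aucklandiae Radix (0.228%), Saengmaek-san (0.298%) and Guibi-tang (0.198%). High dose against vehicle gave 27 in Saposhnikoviae Radix (2.48%), 24 in Saengmaek-san (2.78%), 26 in Guibi-tang (5.24%) and 53 in Soyo-san (12.9%). The differences between extracts gave 8 for Menthae Herba and Saposhnikoviae Radix (2.65%) and 9 for Guibi-tang and Saengmaek-san (0.687%).

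With the library class as a covariate, high against low dose called 9 nuclear members and 3 mitochondrial mRNAs in Aucklandiae Radix (24.4%), 1 and 1 in Menthae Herba (21.5%), and 1 nuclear member in Guibi-tang (5.4%). Against vehicle it called 27 in Aucklandiae Radix (37.3%), 35 in Menthae Herba (31.3%), 6 in Saposhnikoviae Radix (7.01%), 21 in Saengmaek-san (15.7%) and 3 in Guibi-tang (18.9%). Inside class 1, Aucklandiae Radix had 16 nuclear members and 6 mitochondrial mRNAs called (29.3%), Menthae Herba 2 and 2 (25.6%), Guibi-tang 2 nuclear members (4.01%), and Polygalae Radix 4 mitochondrial mRNAs (57.1%) and, at the medium dose, 12 members (9.46%). The difference between Menthae Herba and Saposhnikoviae Radix gave 2 (10.6%). Inside class 2, calls against vehicle were 0 in Saposhnikoviae Radix (0.0986%), 20 in Saengmaek-san (4.51%) and 1 in Guibi-tang (1.66%).

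With only the libraries compared in the fit, high against low dose called 19 nuclear members and 6 mitochondrial mRNAs in Aucklandiae Radix (33.4%) and 1 and 3 in Menthae Herba (18.1%). Medium against low dose of Polygalae Radix called 0 (0%). Against vehicle the counts were 21 in Saposhnikoviae Radix (5.29%), 0 in Saengmaek-san (0.025%), 32 in Guibi-tang (15%) and 67 in Soyo-san (44.7%), and the difference between Menthae Herba and Saposhnikoviae Radix gave 4 (8.58%). The DESeq2 Wald test called 5 in Saposhnikoviae Radix against vehicle (1.93%), and DESeq2 size factors 3 in Guibi-tang against vehicle (9.39%).

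With the replicate number as a block, Menthae Herba had 1 nuclear member and 1 mitochondrial mRNA called (20%) and Guibi-tang 1 nuclear member (4.65%) between high and low dose, and against vehicle Saposhnikoviae Radix had 5 (3.51%) and Guibi-tang 10 (15.1%). The medium dose of Polygalae Radix had 41 members (17.4%). The labels link samples of the same replicate only by that number. In Guibi-tang, however, replicate 3 was class 2 at every dose and replicates 1 and 2 were class 1. Its deviations from the group means correlated at 0.414 between high and low dose for replicate 3, against 0.056 and 0.104 for replicates 1 and 2. The block moved no other count by more than 1.5 times.

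Leaving out each library in turn, nuclear members called between high and low dose ran from 74 to 80 in Polygalae Radix, 0 to 1 in Aucklandiae Radix and 0 to 1 in Guibi-tang, and mitochondrial mRNAs from 0 to 3 in Polygalae Radix. The medium dose of Polygalae Radix gave 6 to 68. Against vehicle the ranges were 57 to 73 in Polygalae Radix, 25 to 39 in Aucklandiae Radix, 43 to 54 in Menthae Herba, 0 to 1 in Saposhnikoviae Radix, 3 to 13 in Saengmaek-san, 0 to 3 in Guibi-tang and 9 to 26 in Soyo-san. The difference between Polygalae Radix and Aucklandiae Radix gave 71 to 80. Apart from the medium dose of Polygalae Radix, shares of all genes are not given for these ranges. The cause of these shifts was not tested.

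Of the 10 isoforms and paralogues, 5 had at most 3 counts in any library and were not tested, at library totals of 17113963 to 33363661 counts. With 2 or 3 libraries a group, and classes mixed within 9 groups, the mitochondrial mRNAs have wide intervals, so a missing call there does not show equal levels.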
